A study of Bos taurus with 8 samples.

Results

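The 10 miRNAs described here, bta-miR-1777a, bta-miR-1777b, bta-miR-2881, bta-miR-2305, bta-miR-2412, bta-miR-2413, bta-miR-1584-5p, bta-miR-2406, bta-miR-3141 and bta-miR-2374, were taken by name from the 744 bovine miRNAs on the arrays. They were selected on values of these arrays, namely a fall from the 0 mo array of a feeding group, together with bright signal and probes rich in G and C. The change from 0 mo is therefore a description, without a test. All 10 were detected on all 8 arrays, as were 143 of the 744 miRNAs. The description as GC-rich and bright held for most of them but not for bta-miR-2406, whose probe had a GC share of 44.4% and whose signal never exceeded 81.2.

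The samples were plasma exosomes of Japanese Shorthorn steers that had been raised on grass alone. One set of 3 steers went to pasture and another set of 3 stayed in a free-stall barn on grass, and blood was taken at 0, 1, 2 and 4 mo. The deposited labels name each array either grazing or housed. The exosomal RNA of the 3 steers of a group and month was mixed into 1 pool and hybridized to 1 array of the 1-colour kind, so each of the 8 combinations of label and month has 1 array and no replicate. The trial began at 0 mo, and muscle biopsies were also taken from the steers at 0, 2 and 4 mo under xylazine and lidocaine. Because the 8 arrays lay on 1 slide, an effect of the place on the slide cannot be told apart from one of feeding group or month. In the study's own table of array values the groups are named the other way round from the deposited labels. Of the 10 members, 9 lay within 1% of a single column of that table on every array, and it belonged to the grazing set for each array labelled housed and to the other set for each array labelled grazing. The remaining member, bta-miR-2406, matched no column within 1%. The paper's text goes the same way as that table. The shares it prints for housed cattle at 0 mo, for miR-1777b, miR-1777a, miR-2305, miR-1584-5p and miR-2413, lay close to those on the array labelled grazing 0 mo. There miR-1777b held 6.70% and miR-1777a 4.87%, against 3.56% and 3.06% on the array labelled housed 0 mo. Arrays are called by their deposited labels, and a direction between the groups turns round when they are read by that table or by the paper's text.

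A miRNA is a short RNA that guides a silencing complex to messenger RNAs carrying a match to its seed, which lowers the protein made from them. Exosomes are small membrane vesicles that cells release, and those in plasma come largely from blood cells, platelets and the vessel wall. On arrays of this maker a probe is complementary to the 3′ end of the miRNA and is shortened until probes bind about equally well, so that miRNAs rich in G have short probes rich in C. No role in cattle is given here for the 10 miRNAs, because none is well established.

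The longest probe of each miRNA is shown because its base composition is what the 10 were grouped by. The sequences are those in the array design files, 5′ to 3′, with runs of at least 4 C in capitals.
bta-miR-1777a: cccgCCCCCCa
bta-miR-1777b: CCCCgCCCCCC
bta-miR-2881: cacccgCCCCC
bta-miR-2305: CCCCCtCCCCgc
bta-miR-2412: ccctctCCCCacc
bta-miR-2413: accgcagtCCCCC
bta-miR-1584-5p: tgCCCCCagccc
bta-miR-2406: aatccagcttccttcttc
bta-miR-3141: cctcctccacccg
bta-miR-2374: cccgcctctccc
The 9 GC-rich probes were 11 to 13 bases long with a GC share of 76.9% to 100%, whereas the probe of miR-2406 had 18 bases and a GC share of 44.4%, against a median of 50% over the probes of all 744 miRNAs. The run CCCC, read on the probe strand, was present in 7 of the 10 and absent from the probes of miR-2406, miR-3141 and miR-2374. It was present in 4.84% of all 744 miRNAs, in 11.9% of the 143 detected on all arrays and in 2.92% of the 513 detected on none. Since the members were chosen for probes rich in G and C, a higher share among them follows from the choice. Other miRNAs with a probe GC share of at least 70% also had the run, such as bta-miR-1835, bta-miR-2455, bta-miR-2898 and bta-miR-2328-3p. Some did not, such as bta-miR-1224 and bta-miR-486. Some probes overlapped in sequence. The probes of miR-1777a and miR-1777b shared a stretch of 10 bases, cccgcccccc, and both shared 9 bases, cccgccccc, with that of miR-2881. The probes of miR-2412 and miR-2374 had 8 bases in common, cctctccc. Outside the list, miR-2406 shared 11 bases, tccagcttcct, with bta-miR-2388-3p, and miR-2305 shared 9 bases, ccccctccc, with bta-miR-2328-3p. How far RNA of one name binds the probe of another was not tested.

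The array design places these probes on UMD_3.1, without a strand, at chr6:107199025-107199034 for miR-1777a, chr7:63524577-63524586 for miR-1777b and chr7:13754330-13754339 for miR-2881. For miR-2305 the position is chr13:39836885-39836895. Chromosome 3 carries miR-1584-5p at chr3:10736944-10736955, miR-2412 at chr3:18845860-18845871 and miR-2413 at chr3:33702871-33702882. The others are miR-2406 at chr29:42859588-42859604, miR-3141 at chr12:73398861-73398872 and miR-2374 at chr22:59818266-59818276. Apart from miR-1584-5p, for which the design gives 2 positions, each interval is 1 base shorter than its probe. The host gene, exon or intron at these positions was not analysed here.

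The signal of a miRNA is the scanner software's total over its spots after background subtraction, in arbitrary units, with the software's own error estimate. The summed signal of an array lay between 45507 and 157696, and the highest belonged to the array labelled housed 0 mo, with 90951 as the next. Of that sum, the 10 miRNAs held 33.2%, 14.5%, 16.3% and 14.7% at 0, 1, 2 and 4 mo on the arrays labelled housed. On those labelled grazing they held 25.5%, 14.6%, 20.0% and 20.5%. The remaining 9, without miR-2412, held 11.5% of the full sum at 0 mo and 9.67% at 1 mo labelled housed. Labelled grazing they held 18.5% and 11.7%. That sum still counts miR-2412, which alone held 21.7% at 0 mo and 4.82% at 1 mo labelled housed. On both labels the 0 mo array held the highest share of these 9. Control features named dmr had a median between 1289 and 1757 on every array, whereas those named hur had their highest median, 815, on the array labelled housed 0 mo, against 143 to 443 on the others. The part of this difference in brightness in the results was not tested. To compare arrays, signals were put over their array's 90th percentile (scaled signal). A change is the difference in log2 scaled signal between a later array and the array of 0 mo with the same label.

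By mean change over 1, 2 and 4 mo, the members had a median of -0.74 labelled housed and -0.64 labelled grazing, beside 0.0018 and 0.15 over the 143 miRNAs. Since the members were chosen by such falls, these medians restate the choice. A mean fall of at least 1 log2 unit was seen labelled housed for 3 members, miR-2412, miR-2406 and miR-3141, and for 5.59% of the 143. Labelled grazing it was seen for 1 member, miR-2413, and for 4.9% of the 143. The members lay below 0 mo at every later month in 9 of 10 cases labelled housed (miR-2413 being the exception), against 32.9% of the 143. In 8 of 10 cases this held labelled grazing (all but miR-2412 and miR-2406), against 23.1%. On both labels it held for 7 of the 10, against 14.7%. The falls labelled housed all rest on the 1 array of 0 mo, which was the brightest, and cannot be given without it.

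**Figure D1:**
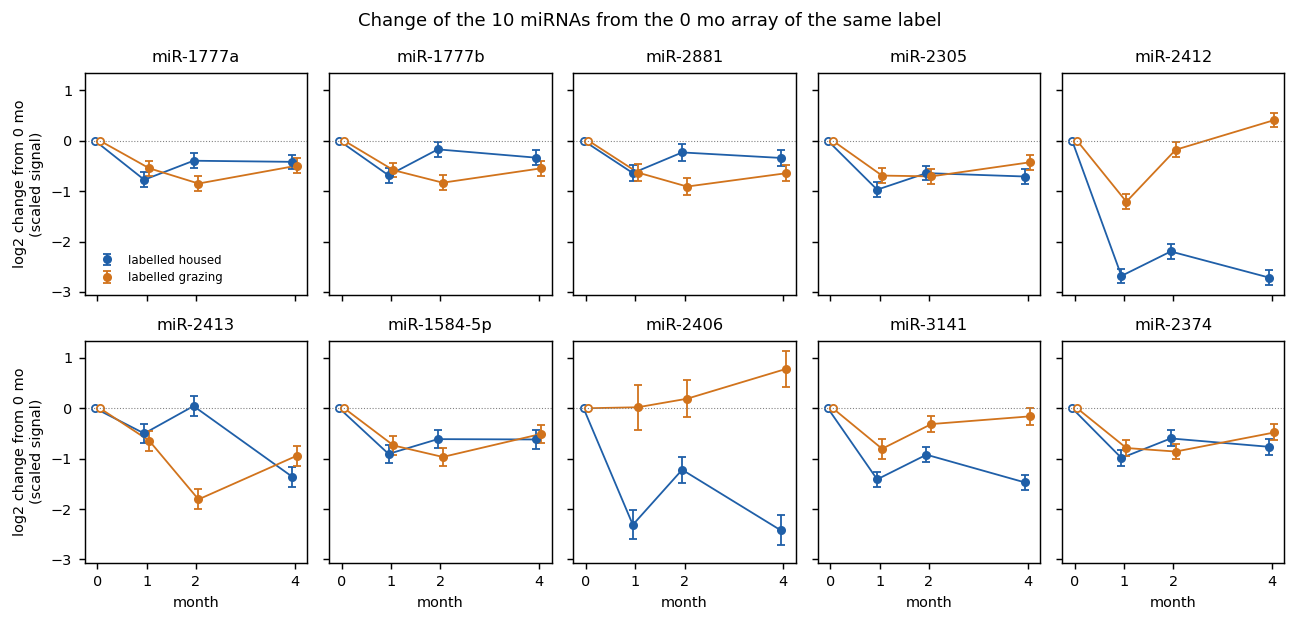
Log2 change of scaled signal since 0 mo within each label (y axis) by month (x axis), 1 panel per miRNA, blue for arrays labelled housed and orange for those labelled grazing, with the scanner software's error estimate as bars and 1 array per point. In 7 panels, that of miR-3141 among them, the later points of both labels all lie below 0. In the other 6 of these they lie between -0.17 and -0.99, with those of miR-1777b at 2 mo at -0.17 and -0.83. The points of miR-2412, miR-2406 and miR-3141 fall farther on the arrays labelled housed, and miR-2413 has its low points at housed 4 mo and grazing 2 mo.

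A first group of 6, miR-1777a, miR-1777b, miR-2881, miR-2305, miR-1584-5p and miR-2374, were lower at every later month on both labels. This also held for miR-3141, which is described with the second course. The signal of miR-1777b was 5607 at 0 mo and 2662, 2315 and 3358 at 1, 2 and 4 mo labelled housed. Labelled grazing it was 3842 and then 1966, 2976 and 2212. Both 0 mo arrays thus had the highest signal of their label, and before scaling the later signals of both labels overlapped. On the log2 scaled scale its changes were -0.69, -0.17 and -0.34 labelled housed and -0.59, -0.83 and -0.55 labelled grazing, each with an error estimate of 0.15, and the change at 2 mo labelled housed was within 2 error estimates.

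For miR-1777a, whose name marks it as a near relative of miR-1777b, the signal was 4820, 2152, 1702 and 2727 labelled housed and 2791, 1467, 2137 and 1666 labelled grazing at 0, 1, 2 and 4 mo. Its mean log2 change was -0.53 labelled housed and -0.63 labelled grazing (error estimate 0.12 each). The signal of miR-2881 was 703, 344, 278 and 420 labelled housed and 498, 247, 366 and 268 labelled grazing. Before scaling, all later arrays lay below both 0 mo arrays for miR-1777a and for miR-2881. After scaling this did not hold. The scaled signal of miR-2881 was 6.45 at 0 mo labelled housed and 7.89, 6.51 and 7.82 at 1, 2 and 4 mo labelled grazing. That of miR-1777a was 44.2 at 0 mo labelled housed and 47.0 and 48.7 at 1 and 4 mo labelled grazing. The mean change of miR-2881 was -0.41 and -0.73 (0.13 each).

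The signal of miR-2305 was 2865, 1116, 853 and 1325 labelled housed and 1185, 563, 1001 and 741 labelled grazing. Here the housed 4 mo array lay above the grazing 0 mo array before scaling, but within each label 0 mo was the highest. The mean log2 change was -0.78 and -0.61 (0.12 each). For miR-1584-5p the signal was 1918, 782, 583 and 945 labelled housed and 1086, 500, 767 and 642 labelled grazing, with mean changes of -0.71 and -0.74 (0.15 each). The dimmest of the 6, miR-2374, had signals of 314, 121, 96.5 and 140 labelled housed and 162, 71.8, 123 and 97.4 labelled grazing, and its mean changes were -0.78 and -0.71 (0.13 each). For the last 2 named, each of the 6 single changes exceeded 2 error estimates.

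A second course was that of miR-2412, miR-2406 and miR-3141, which fell far on the arrays labelled housed. By mean change they fell less, or not at all, on those labelled grazing. At 1 mo labelled grazing, however, miR-2412 changed by -1.21 and miR-3141 by -0.80. The signal of miR-2412 was 34152 (error estimate 2415) at 0 mo labelled housed, and 4065, 3463 and 3930 at 1, 2 and 4 mo. Labelled grazing it was 4002 (283), 1327, 4876 and 4472. The array labelled housed 0 mo stood alone, with the next brightest at 4876, and the other 7 arrays of both labels overlapped. Its log2 changes were -2.68, -2.20 and -2.72 labelled housed. They were -1.21, -0.18 and 0.41 labelled grazing, with error estimates of 0.14, so that 1 month was lower and 1 higher than 0 mo by over 2 error estimates. By mean change labelled housed it was the lowest of the 143 miRNAs, at -2.53.

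The signal of miR-2406 was 81.2 (8.11) at 0 mo labelled housed and 12.5, 16.2 and 11.5 at the later months, while labelled grazing it was 9.71, 7.56, 15.3 and 14.0. In this case again 1 array stood apart from the other 7. Its mean change was -1.99 (0.20) labelled housed and 0.33 (0.32) labelled grazing. For miR-3141 the signal was 223, 64.1, 54.8 and 60.8 labelled housed and 51.5, 22.6, 57.2 and 38.8 labelled grazing, and its mean changes were -1.27 (0.12) and -0.43 (0.14). Only at 1 mo was miR-3141 lower than 0 mo by over 2 error estimates on the arrays labelled grazing.

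The course of miR-2413 differed from both. Its signal was 1664, 898, 797 and 491 labelled housed and 997, 490, 393 and 437 labelled grazing. Its log2 changes were -0.50, 0.043 and -1.36 labelled housed and -0.64, -1.81 and -0.94 labelled grazing, with error estimates of 0.20. The change at 2 mo labelled housed was near 0 after this scaling, whereas the unscaled change was -1.06, and 2 mo was the month in which it was lowest labelled grazing. With let-7g, normexp or no scaling, all 10 members lay below 0 mo at every later month labelled housed. The number was 7 with the 75th percentile, the 90th percentile of miRNAs detected on all 8 arrays or summed signal, and 8 with quantile normalization. Labelled grazing it was 7, 8, 7 and 6 with these scalings in that order, 8 with let-7g or normexp, and 7 without scaling. The share of all miRNAs under these settings is not given here. Their median mean change labelled housed was -0.63 without scaling, -0.18 with let-7g and 0 with normexp. It was 0.11 to 0.38 with the scalings that gave 7 or 8 members.

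The falls were compared probe by probe, since each miRNA was read by more than 1 probe. Of the 10, 9 had 2 probes, which overlap except for 1 base and stood in 20 spots each, and probes of 1 miRNA are not replicates. For these 9 both probes had a mean change below 0 on both labels, and the probes of a miRNA differed in mean change by at most 0.21. For miR-2412 the 12-base and the 13-base probe fell by 2.53 and 2.54 on the log2 scale labelled housed, and changed by -0.32 and -0.33 labelled grazing. The largest gap, 0.21, was that of miR-2881 labelled housed, where the 10-base probe changed by -0.25 and the 11-base probe by -0.46, while the largest standard error over spots of a single month was 0.018 for either.

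Adding 1 base raised the signal of some probes much more than of others. The log2 ratio of the longer over the shorter probe was 4.82 for miR-2413 and 2.97 for miR-1584-5p, as means over the 8 arrays, but -0.016 for miR-2412 and -0.050 for miR-1777a. Within a miRNA this ratio hardly moved, with an SD over the 8 arrays between 0.011 and 0.089. The signal of miR-2413 therefore came almost wholly from its 13-base probe.

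For miR-2406, 3 probes of 16, 17 and 18 bases stood in 14, 13 and 13 spots. The mean spot signal of the 18-base probe was 433 at 0 mo labelled housed, and lay between 49.2 and 92.7 on the other arrays. Those of the shorter probes lay between -7.36 and 12.5 on all 8 arrays, so no change is given for them. The 12.5 was that of the 17-base probe at 0 mo labelled housed, the array on which the 18-base probe was brightest. By the 18-base probe alone the mean change was -1.81 labelled housed and 0.43 labelled grazing.

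**Figure D2:**
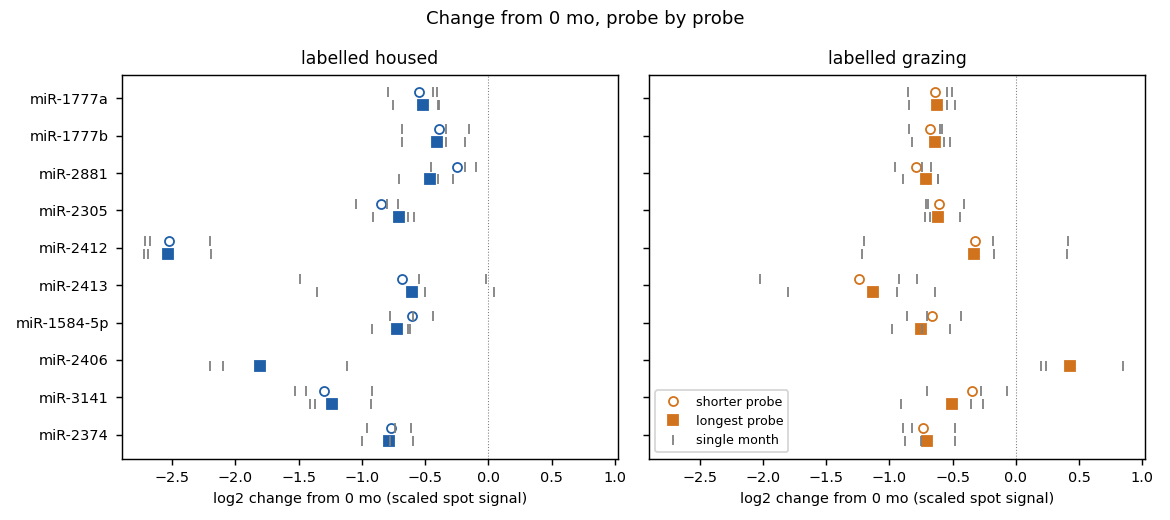
Mean log2 change of scaled spot signal from 0 mo (x axis) for each probe of each miRNA (y axis), labelled housed on the left and labelled grazing on the right. Open circles are the shorter probe, filled squares the longest probe and grey ticks the single months. Circle and square lie close together for each of the 9 miRNAs with 2 probes, at most 0.21 apart, and miR-2406 has 1 probe with signal.

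Which miRNAs shared a course was read from the log2 ratio of a pair within an array, which no factor per array can change. A pair was said to share a course where the SD of that ratio over the 8 arrays was at most 2 times the combined error estimate of the pair. By this rule 18 of the 45 pairs of members shared a course, 40.0%, against 44.7% of the 10153 pairs among the 143 miRNAs, so that sharing as such was no more common among the members. The 18 pairs were not spread evenly. All 15 pairs among miR-1777a, miR-1777b, miR-2881, miR-2305, miR-1584-5p and miR-2374 shared a course, with SDs of 0.040 to 0.27 and a median of 0.14, beside a median of 0.48 over all 10153 pairs. These 6 were grouped by that same measure, so this too is a description.

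The tightest pair was miR-1777b with miR-2881, with an SD of 0.040 and a Pearson r of 0.997 over the 8 arrays, and no pair among the 143 miRNAs had a lower SD. Next came miR-1584-5p with miR-2374, with an SD of 0.074 and an r of 0.988, whose probes shared a stretch of only 3 bases. The 3 pairs with at least 9 shared bases all shared a course, as did 12 of the 25 with 5 to 8 and 3 of the 17 with under 5. Within the 6 the loosest pairs were those of miR-2305 with miR-1777b and miR-2881, at 0.27 each.

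Outside this group, miR-2406 passed with miR-2412 (SD 0.44) and with miR-3141 (0.42), and miR-3141 passed with miR-2305 (0.31). The pair of miR-2412 and miR-3141 had an r of 0.964 but an SD of 0.49, which was 3.12 times its combined error, and miR-2412 moved farther than miR-3141. The wide error estimate of the dim miR-2406 let its pairs pass at an SD at which brighter pairs did not. The remaining member, miR-2413, shared a course with none of the other 9, and its SDs ran from 0.50 to 0.99. Set against miR-1777b within an array, the log2 ratio of miR-2412 changed from 0 mo by -2.03 at 2 mo and -2.38 at 4 mo labelled housed. Labelled grazing it changed by -0.63, 0.65 and 0.96 at 1, 2 and 4 mo (error estimate 0.20 each).

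Without the array labelled housed 0 mo, 25 of the 45 pairs of members shared a course, against 46.9% of all pairs, and over the 6 later arrays 25 did, against 51.6%. The 15 pairs of the group of 6 passed in both cases, with a highest SD of 0.20. In both cases miR-2406, with its wide error estimate, also passed with each of these 6, so it was not set apart from them. The correlation of miR-2412 with miR-2406 was 0.892 over 8 arrays and 0.736 without the array labelled housed 0 mo, and that of miR-2412 with miR-3141 was 0.964 and 0.902. The points of each correlation share their RNA pool, array and scaling factor, and no p is given.

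**Figure D3:**
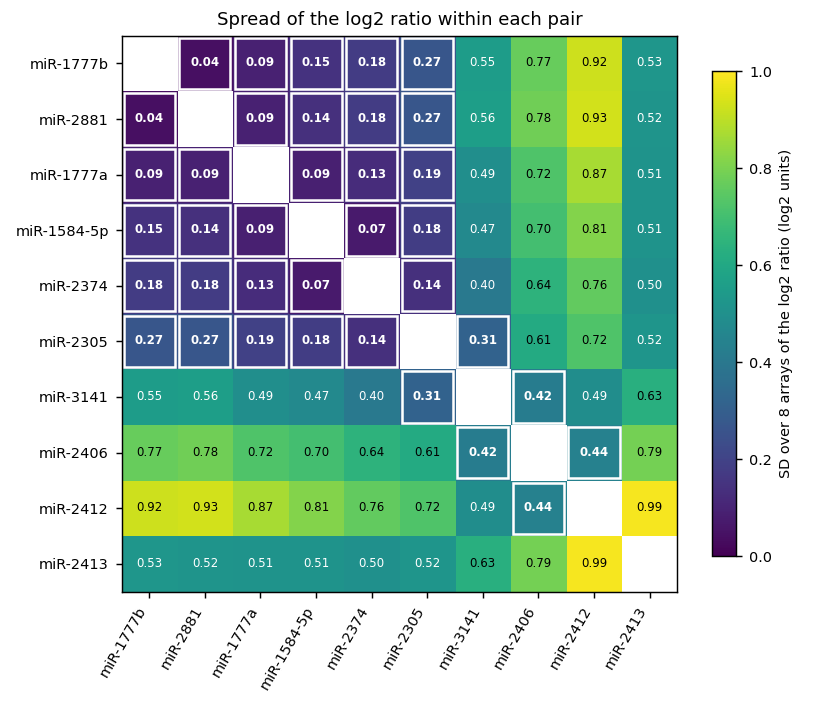
SD over the 8 arrays of the log2 ratio of each pair of miRNAs, as numbers and as colour, with white frames and bold type for the pairs said to share a course. The dark block of 6 miRNAs at the top left holds SDs of 0.040 to 0.27, and the row of miR-2413 has no frame.

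Among the other miRNAs detected on all 8 arrays, those with the pattern most like miR-1777b, by Pearson r of log2 scaled signal over the 8 arrays, were bta-miR-1835 (0.977), bta-miR-2455 (0.947) and bta-miR-574 (0.910). The SDs of their log2 ratios to miR-1777b were 0.10, 0.15 and 0.86, and the mean change of miR-574 was 0.12 labelled housed and -1.36 labelled grazing. The probes of miR-1835 and miR-2455, cagccccagctctc and tccctgcctcccc, are also GC-rich, at 71.4% and 76.9%. Most like miR-2412 were bta-miR-2410 (0.965), bta-miR-29a (0.804) and bta-miR-2328-3p (0.799), with SDs of 0.28, 0.80 and 0.69. The signal of miR-2410 lay between 6.11 and 109, and its mean change was -2.06 labelled housed and -0.52 labelled grazing. Its probe, tcacaggtcctcctc, has a GC share of 60% and shares at most 4 bases in a row with that of miR-2412. All these values come from the same 8 arrays, and carry no test.

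A further 21 miRNAs detected on all 8 arrays had a probe GC share of at least 70% and were not among the 10. Their mean changes ranged from -1.04 to 0.52 labelled housed, with a median of -0.20, and from -0.88 to 0.31 labelled grazing, with a median of -0.39. Of the 21, 16 had a mean change below 0 labelled housed and 17 labelled grazing, and 11 and 15 lay below 0 mo at every later month, against 32.9% and 23.1% of the 143. By at least 1 log2 unit, 1 fell labelled housed and 0 labelled grazing. Lowest by the mean of both labels were bta-miR-1224 (-1.04 and -0.61), bta-miR-2898 (-0.64 and -0.85) and miR-2328-3p (-0.81 and -0.65). Highest were bta-miR-486 (0.52 and 0.13), a red-cell miRNA, bta-miR-874 (-0.16 and 0.31) and bta-miR-1281 (0.038 and 0.048).

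**Figure D4:**
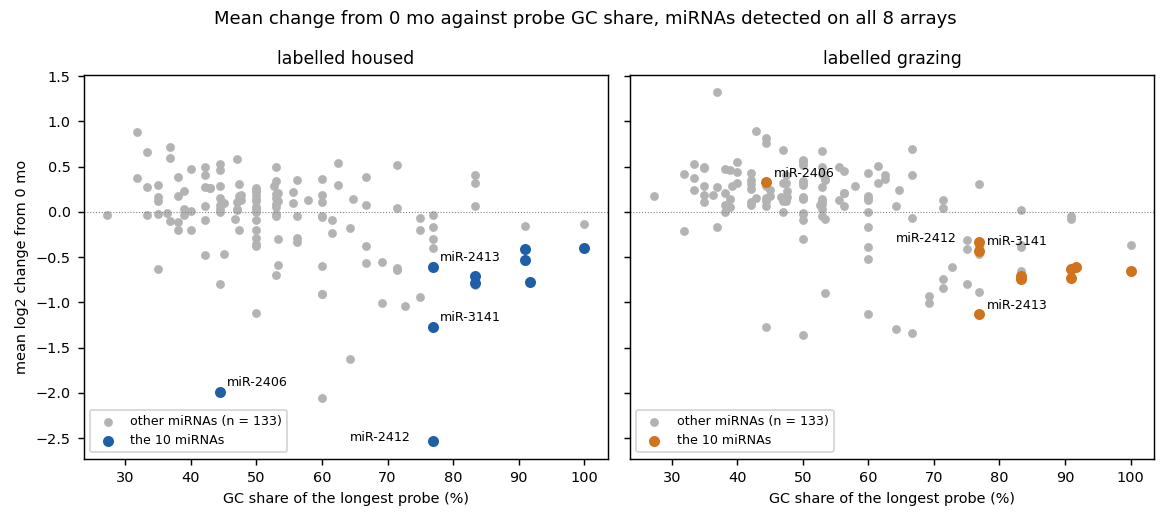
Mean log2 change from 0 mo (y axis) against the GC share of the longest probe in percent (x axis) for the 143 miRNAs detected on all 8 arrays, labelled housed on the left and labelled grazing on the right. Coloured points are the 10 miRNAs and grey points the other 133. miR-2406, at 44.4%, lies apart from the other 9, and miR-2412 is the lowest point on the left.

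Points of comparison were let-7g, whose mean change was 0.18 for the label housed and 0.073 for the label grazing, and the most abundant miRNA, miR-2478, with -0.044 and 0.066. Of the 4 red-cell miRNAs listed (miR-451, miR-144, miR-486 and miR-16b), all were detected on all arrays, and their summed share was 2.04% at 0 mo and 3.45% to 4.65% later labelled housed, and 1.61% to 2.04% on the arrays labelled grazing. Of the 3 platelet and myeloid miRNAs, miR-223 and miR-126-3p were detected on all arrays and miR-191 on none, with a summed share of 4.90% at 0 mo and 5.54% to 7.84% later labelled housed, and of 3.37% at 0 mo and 3.80% to 5.59% later labelled grazing. These shares are of the full sum, in which miR-2412 alone held 21.7% at 0 mo and 4.32% to 5.55% later labelled housed. A lower share at 0 mo labelled housed therefore need not be a lower level. The part of the red-cell, platelet and myeloid miRNAs in the falls was not tested. Of 6 muscle miRNAs, 5 were detected on none of the arrays, and miR-133b on 2.

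At 0 mo, before grazing began, the pools already differed. Scaled signal on the array labelled grazing was higher than on that labelled housed by 0.63 for miR-1777a, 0.88 for miR-1777b, 0.92 for miR-2881, 0.68 for miR-2413, 0.60 for miR-1584-5p and 0.46 for miR-2374 on the log2 scale, with error estimates of 0.14 to 0.20. For miR-2305 the difference was 0.15, within 2 error estimates. It was lower for miR-2412 (-1.67), miR-2406 (-1.64) and miR-3141 (-0.69), the miRNAs of the second course. The median over the 143 miRNAs was -0.22. Before scaling, all 10 were brighter on the array labelled housed 0 mo, by 8.53 times for miR-2412, 8.36 times for miR-2406, 4.33 times for miR-3141 and 1.41 to 2.42 times for the others.

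The labels were also compared over the later months, without the 0 mo arrays. These later arrays are 1 side of each change by which the members were chosen, so this comparison is not independent of the choice. All 10 had a higher mean scaled signal on the arrays labelled grazing at 1, 2 and 4 mo, by 0.15 to 0.67 on the log2 scale, with a median of 0.53 beside -0.0094 over the 143 miRNAs. For miR-1777b the scaled signal was 32.0, 45.7 and 40.7 labelled housed and 62.9, 53.0 and 64.6 labelled grazing at 1, 2 and 4 mo, and the labels did not overlap. The log2 difference was 0.62 (SE 0.21, 95% interval 0.18 to 1.06), with an adjusted p of 0.0562 from limma with month as a block. For miR-2412 the scaled signal was 48.8, 68.3 and 47.7 labelled housed and 42.5, 86.8 and 131 labelled grazing, which overlapped, and the log2 difference was 0.53 (SE 0.26, 95% interval -0.013 to 1.08, limma adjusted p 0.149).

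With limma at an adjusted p under 0.05, 0 of the 10 members passed in either direction, against 6.29% of the 143 miRNAs higher and 4.9% lower on the arrays labelled grazing. The lowest adjusted p among the members was 0.0562, shared by miR-1777b, miR-2881 and miR-1584-5p. At an unadjusted p under 0.05, 6 members passed in the same limma fit, miR-1777a, miR-1777b, miR-2881, miR-1584-5p, miR-2406 and miR-2374, against 36.4% of the 143. The differences were largest at 1 mo for miR-1777a, miR-1777b, miR-2881 and miR-1584-5p, smallest at 2 mo for all of the 6 with one course, and of mixed sign for miR-2412, miR-2413, miR-2406 and miR-3141. For miR-2413 they were 0.54, -1.17 and 1.10, the widest range of the 10. The fit had 2 residual degrees of freedom per miRNA, and the months come from the same steers, so it describes the pools. The intervals and p-values of limma do not rest on these alone, because its eBayes step also draws on the variances of the other miRNAs tested. Without scaling, the difference of every member turned below 0, from -0.17 to -0.70, while 8 of the 10 passed when arrays were scaled to let-7g, against 31.7% of the 142 miRNAs then tested.

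**Figure D5:**
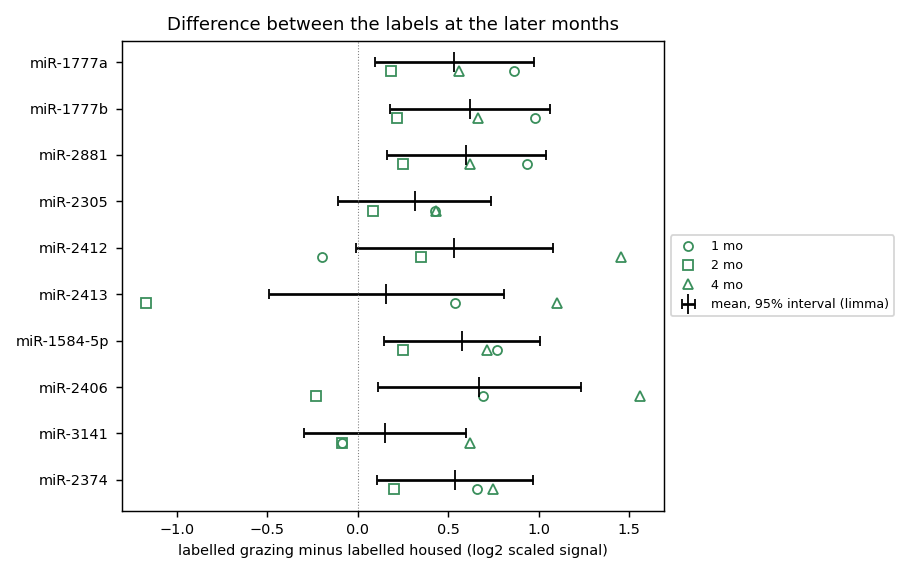
Log2 scaled signal labelled grazing minus labelled housed (x axis) for each miRNA (y axis), with green symbols for the single months and black bars for the mean with its 95% interval from limma. All 10 means lie above 0, between 0.15 and 0.67, and the single months of miR-2413 spread from -1.17 to 1.10.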

How the data were processed

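Plasma exosomal RNA of 3 steers per feeding group and month was pooled by the authors and hybridized to 1 custom Agilent bovine miRNA array each. The deposited scanner output, made with Feature Extraction 10.7.3.1, gives intensity after subtraction of background and before any scaling across arrays. A second table deposited by the authors gives a ratio, the raw signal over 1 factor per array, which was used as an alternative (730 of its 743 names matched).

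Total signals were divided by the 90th percentile of each array over 744 miRNAs, raised to a floor of 0.114 and taken to log2, the floor being the lowest detected scaled signal of the array on which that signal was highest. No member lay at the floor. Errors of single values are the scanner software's own estimates, and with 1 array per pool they hold no spread between animals. They are not the measured spread over spots. For miR-2412 they were 0.102 on the log2 scale on every array. At 0 mo labelled housed its estimate was 2415 on a signal of 34152, while its 12-base probe had a standard error over spots of 200 on a mean of 60555. Statements by 2 error estimates, and the rule for a shared course, rest on these estimates. Spot values leave out outlier spots (154 of 3200 spots of the members). Labels at 1, 2 and 4 mo were compared with limma 3.58.1 in R 4.3.3 over the 143 miRNAs that every array detected, using month as a block and Benjamini-Hochberg adjustment. The fit was tested on simulated data. Pairs, probes and changes from 0 mo were described without a test, using Python 3.11.15, numpy 2.4.6, pandas 2.3.3 and networkx 3.6.1.

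The members, the lists and the alternatives were chosen with earlier results of these data known. The miRNAs named are the 10 members, the 3 most correlated with miR-1777b and with miR-2412, let-7g, miR-2478, lists of red-cell, platelet and myeloid, and muscle miRNAs, and the 3 lowest and 3 highest of the other GC-rich miRNAs. bta-miR-2388-3p was named after its probe sequence was seen. Alternatives were 6 other scalings, the mean of spots, normexp correction with an offset of 50, the authors' table, no floor, other filters, no month term and leaving out each later month. One, leaving out the array labelled housed 0 mo from the pairs, was added after the data were seen. Mature miRNA sequences were not used here.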

Additional observations from a re-analysis of the deposited data

Results flagged for a closer look

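For miR-2406, after scaling, every later array labelled housed lay below 0 mo and every later array labelled grazing lay above it, with mean log2 changes of -1.99 and 0.33. The difference between these changes was not tested here. On the arrays labelled grazing, 1 of the 3 months exceeded 2 error estimates, and at 1 mo the scaled change was 0.019 (error estimate 0.45) and the unscaled change -0.36. The signal behind the mean of 0.33 lay between 7.56 and 15.3, and only 1 of the 3 probes of this miRNA carried it.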

How the results depend on the processing

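The mean changes labelled housed stayed below 0 for all 10 members under all 13 alternatives, though with summed signal they were close to 0 for miR-1777b (-0.019) and miR-2881 (-0.026), and those labelled grazing kept their sign except for miR-1777b with quantile normalization (0.16) and miR-2412 without 1 mo (0.11). Relative to the median of all miRNAs, which other scalings moved from 0.0018 to between -0.63 and 0.38 labelled housed and from 0.15 to between 0.046 and 0.37 labelled grazing, all 10 lay below it labelled housed, and 8 to 10 labelled grazing. Relative to that median, 3 members lay at least 1 log2 unit lower labelled housed without scaling, and 1 with normexp. The counts of members that follow are of changes from 0 mo, and the share of all miRNAs under these settings is not given here. Members falling by at least 1 log2 unit labelled housed were 10 without scaling and 1 with normexp, where miR-2406 changed by -0.27. They were 2 with the 75th percentile, the 90th percentile of detected miRNAs and summed signal. With these miR-3141 changed by -0.90, -0.94 and -0.89. Labelled grazing they were 0 with the 75th percentile or quantile normalization, and 0 to 1 when a month was left out (0 without 2 mo). With normexp 29 pairs of members shared a course, and the 15 of the group of 6 were among them. The pairs of miR-2406 and of miR-3141 with each of these 6 passed too, while miR-2412 with miR-2406 did not. The share over all pairs with normexp is not given here. Month, by which the labels are paired, was the block of the fit, and the labels carry no replicate numbers. The 16 miRNAs called between the labels became 10 without the month term, 0 with a filter of detection on at least 4 arrays, 5 with the 75th percentile, 29 with the 90th percentile of detected miRNAs, 3 with summed signal, 45 with let-7g, 0 with quantile normalization, 3 without scaling, 8 with the mean of spots, 10 with the authors' table and 0 to 2 when a month was left out. Members called were 8 with let-7g. Without scaling the label difference was -0.31 for miR-1777a, -0.23 for miR-1777b, -0.25 for miR-2881, -0.53 for miR-2305, -0.31 for miR-2412, -0.69 for miR-2413, -0.27 for miR-1584-5p, -0.17 for miR-2406, -0.70 for miR-3141 and -0.31 for miR-2374. It was -0.012 for miR-2305 with normexp. For miR-2413 it was -0.036 with the 75th percentile, -0.13 with summed signal, -0.18 with normexp, and -0.32 to 0.82 when a month was left out. For miR-3141 it was -0.045 with the 75th percentile, -0.14 with summed signal and -0.087 to 0.27 when a month was left out. Without scaling, the differences of all 10 members moved by the same amount, so their signs are not separate results. The causes of the other moves were not tested. Brightness limits miR-2406 most, with error estimates of 0.14 to 0.35 on the log2 scale.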
